A study of Rattus norvegicus with 9 samples.

Results

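The miR-15/16 family, with miR-195, miR-497 and miR-322, is a set of microRNAs that share a seed, the stretch of bases near the 5′ end through which a microRNA pairs with its target mRNAs. Its members here were taken by name: every row for miR-15a, miR-15b, miR-16, miR-195, miR-497, miR-322 or miR-503, on either arm of the hairpin. This gave 11 of the 465 mature miRNAs counted, 6 from the 5p arm and 5 from the 3p arm. Small RNA was sequenced from dissected retinas of wild type Sprague Dawley rats in 3 groups of 3 libraries. Sham animals at postnatal day 14 (sham P14) were compared with animals of the same age with oxygen-induced retinopathy (OIR P14), and these with OIR animals at postnatal day 29 (OIR P29). This retinopathy is a model of retinopathy of prematurity in which newborn animals are kept in altered oxygen while the retinal vessels grow. The labels give neither the oxygen schedule nor the sham procedure, nor do they say whether a library holds 1 animal or a pool. With no sham group at P29, age and the stage of the model cannot be told apart in the later comparison.

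In mammals, miRNAs with this seed repress mRNAs for cyclins and cyclin-dependent kinases of the step from growth into DNA synthesis, and for the survival protein Bcl2, and they are known as brakes on the cell cycle. The same seed is made from separate loci. miR-15b and miR-16 come from an intron of Smc4, a chromosome condensation gene, while in human and mouse another copy of miR-16 lies beside miR-15a. miR-195 and miR-497 are made from a shared transcript, which in mouse heart and skeletal muscle is linked to exit from the cell cycle. miR-322, the rodent counterpart of human miR-424, lies with miR-503 in a cluster on the X chromosome, and miR-424 is known in human endothelial cells as a hypoxia-induced miRNA.

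The mature sequences of the 5p members are shown because they carry what the family shares and where its loci differ. They are those of RefSeq (rat assembly GRCr8), 5′ to 3′, with the seed (bases 2 to 8) in capitals.
rno-miR-16-5p: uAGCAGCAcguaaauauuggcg
rno-miR-195-5p: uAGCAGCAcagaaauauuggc
rno-miR-15b-5p: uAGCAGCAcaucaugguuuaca
rno-miR-497-5p: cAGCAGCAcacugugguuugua
rno-miR-322-5p: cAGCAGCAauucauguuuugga
These 5 were the only ones with this seed among the 423 miRNAs of the tables that had a RefSeq sequence, and 10 of the 11 members had one. The member without one was miR-15a-5p, which is therefore not shown, and its seed was not compared. Outside the seed the sequences did not group by locus. miR-195-5p, from chromosome 10, differed from miR-16-5p, whose RefSeq hairpin is on chromosome 2, at 2 of 21 positions (G10A and U11G, miR-16-5p first, counted from the 5′ end). miR-15b-5p, which lies 51 bases from miR-16 on chromosome 2, differed from it at 8 of 22 positions. It differed from miR-497-5p and from miR-322-5p at 6 of 22 positions each. miR-497 and miR-195 lie 255 bases apart on chromosome 10, and miR-503 and miR-322 lie 220 bases apart on chromosome X. The labels do not say how reads that could match more than 1 member were counted, and reads of a mature miR-16-5p made from more than 1 locus cannot be split.

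The 3p arms, which come from the other side of the same hairpins, do not carry this seed. Those of miR-15b and miR-322 are shown because the results below turn on them.
rno-miR-15b-3p: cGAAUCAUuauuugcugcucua
rno-miR-322-3p: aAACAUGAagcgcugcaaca

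The 9 libraries held 11808893 to 15260603 counted reads. Columns carry library codes in place of replicate numbers: sham P14 libraries are 25, 27 and 51, OIR P14 libraries 11, 12 and 38, and OIR P29 libraries 20, 21 and 47. Levels are given as reads per 1000000 counted reads (CPM), scaled by the TMM factors of edgeR over the 9 libraries. All 6 listed retinal miRNAs were present in every library, the photoreceptor miRNA miR-182 leading them, and their summed level was 687129 to 736319 CPM in sham P14. It was 769974 to 919963 CPM in OIR P14 and 650940 to 706886 CPM in OIR P29. These sums are TMM-scaled and are not shares of reads. In OIR P14 library 11, with a TMM factor of 0.847, miR-182 had 10398645 of 15260603 reads. A miRNA that takes so much of a library makes the levels of all others depend on the scaling. The replicates of a group were not equally alike. By chi-square per degree of freedom, sham P14 library 27 stood 223 and 229 from libraries 25 and 51, which stood 154 from one another. OIR P14 library 38 stood 140 and 122 from libraries 11 and 12, which stood 93.4 from one another. OIR P29 library 47 stood 184 and 107 from libraries 20 and 21, which stood 77.4 from one another. On raw counts this measure weighs abundant miRNAs most, and it need not hold for each miRNA. For the abundant miR-204-5p it was sham P14 library 25 that stood apart, at 5927 CPM against 13691 and 13316 CPM in libraries 27 and 51. In whole retina, fewer cells of a type and less of a miRNA per cell cannot be told apart.

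The family was carried by miR-16-5p. It made up 89.1% ± 0.565 (SD, n = 3) of the reads of the 6 5p members in sham P14, 89.6% ± 0.914 at OIR P14 and 87.3% ± 0.046 at OIR P29. The 6 together took 0.319% ± 0.0112 of all reads in sham P14, 0.290% ± 0.0164 at OIR P14 and 0.233% ± 0.0243 at OIR P29. In each group the order of levels began with miR-16-5p, then miR-15a-5p, then miR-15b-5p, with no overlap between these 3. Mature lengths were 21 or 22 bases for the 5p members with a sequence, and reads were compared between members with no correction. The order is one of reads, because how evenly different sequences enter a library was not tested. Below the leading 3 members the order was the same in every library of sham P14 and OIR P14, and differed in OIR P29. In both P14 groups miR-322-5p came next, then miR-195-5p, and miR-497-5p was the lowest. In OIR P14 library 38 miR-322-5p and miR-195-5p were close, at 192 and 187 reads, and their ranges over that group overlapped. In OIR P29 miR-195-5p lay above both others in every library, and miR-322-5p and miR-497-5p overlapped.

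**Figure D1:**
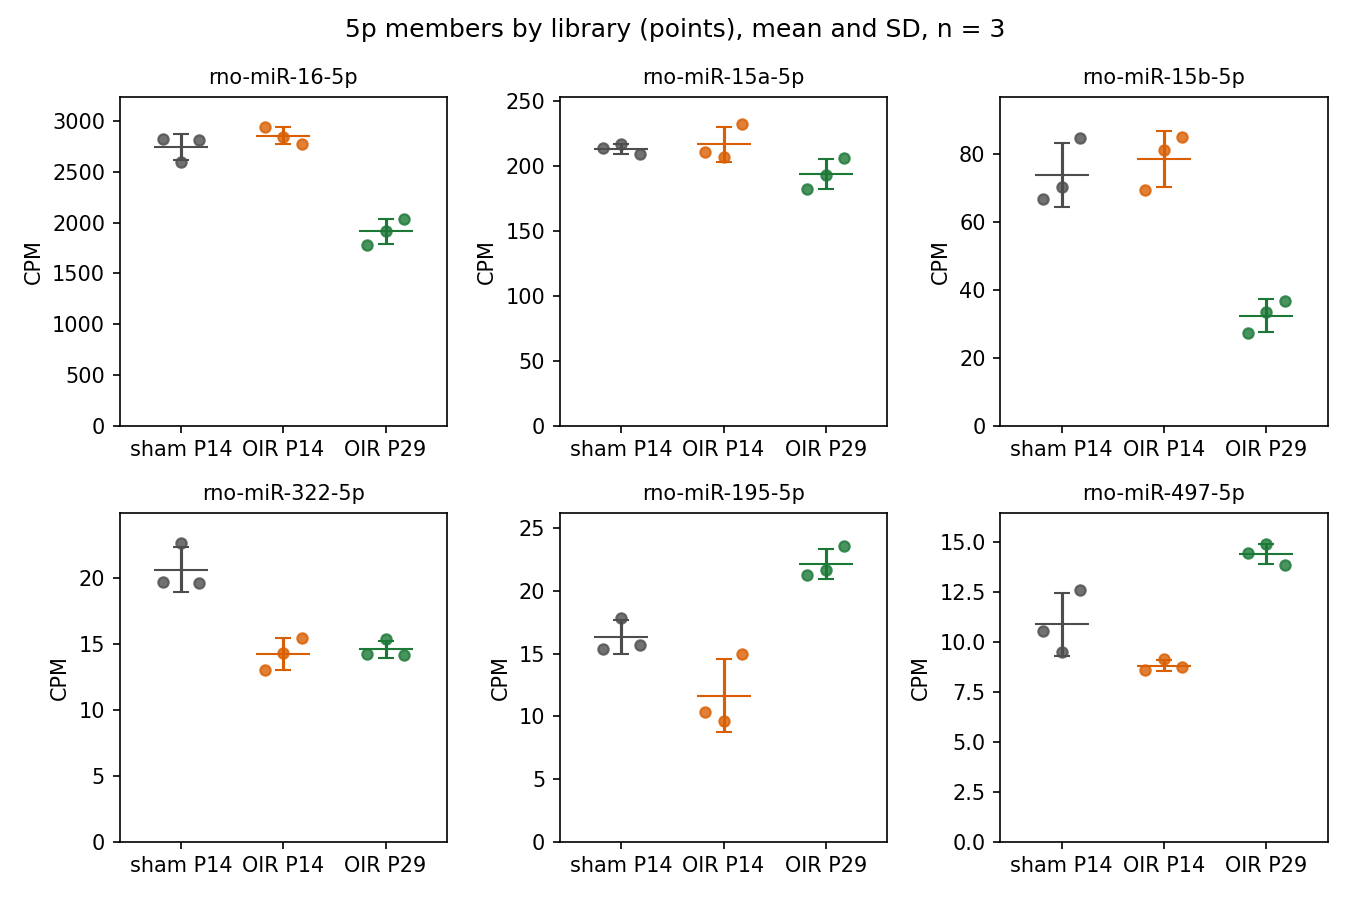
Level of the 6 5p members in each library, in TMM-scaled CPM (y axis, from 0, a scale of its own per panel), by group (x axis); points are libraries, and lines and bars are the mean and SD of 3. miR-15b-5p stood at 27.2 to 36.6 CPM in OIR P29 against 69.3 to 85.1 in OIR P14, while miR-195-5p stood at 21.3 to 23.5 against 9.62 to 14.997.

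The first comparison was of OIR P14 with sham P14, animals of one age with and without the retinopathy. The members of the miR-15a, miR-15b and miR-16 hairpins overlapped between the groups, while the 5p members from chromosome 10 and chromosome X were lower in every OIR P14 library than in any sham library. None of these differences passed the test over all miRNAs. In edgeR's quasi-likelihood test, with p-values adjusted by Benjamini-Hochberg over all miRNAs, 0 of the 9 members tested were called, beside 7 of 415 miRNAs in all (1.69%). DESeq2 and limma-voom also called 0 members, and 2 members had an unadjusted p under 0.05, miR-322-5p and miR-195-5p. The members' median log2 fold was -0.15, beside -0.03 over all miRNAs tested. Groups did not overlap for 3 of the 9 members, beside 65 of 415 miRNAs (15.7%).

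miR-322-5p, the 5p arm of the X chromosome hairpin, gave 231, 301 and 247 reads in sham P14 libraries 25, 27 and 51, and 168, 187 and 192 reads in OIR P14 libraries 11, 12 and 38. That is 19.6, 22.6 and 19.6 CPM in sham against 13.0, 14.3 and 15.4 CPM in OIR P14. All 3 OIR libraries were below all 3 sham libraries, and the means differed 1.45-fold (20.6 ± 1.71 against 14.2 ± 1.20 CPM, SD, n = 3). The log2 fold was -0.54 ± 0.12 (SE), with an unadjusted edgeR p of 0.00211 and an adjusted p of 0.0969. The call depended on the fit. With all 9 libraries in one edgeR fit its adjusted p was 0.0467, and in the authors' deposited table its log2 fold was -0.56 with a false discovery rate of 0.0419. Over 14 alternatives its log2 fold ranged from -0.72 to -0.47 and its adjusted p from 0.0419, the authors' deposited false discovery rate, to 0.381 in edgeR. The lowest among the fits made here was the 0.0467 above. Its other arm, miR-322-3p, did not share the separation: 7.23, 6.45 and 9.43 CPM in sham overlapped 8.05, 6.03 and 6.90 CPM in OIR P14.

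miR-195-5p, linked to cell cycle exit in mouse heart, stood at 15.4, 17.9 and 15.7 CPM in sham P14 libraries 25, 27 and 51, and at 10.4, 9.62 and 14.997 CPM in OIR P14 libraries 11, 12 and 38. OIR library 38 lay just under the lowest sham library, and the other OIR libraries well below it. The log2 fold was -0.49 ± 0.18 (SE), with an unadjusted edgeR p of 0.0226 and an adjusted p of 0.392. Without library 38 the log2 fold was -0.70 and the edgeR adjusted p 0.0648, the lowest of 14 alternatives whose highest was 0.796. Its chromosome 10 partner miR-497-5p stood at 10.5, 9.53 and 12.6 CPM in sham and at 8.59, 9.16 and 8.74 CPM in OIR P14. These ranges did not overlap either, though they nearly met, and the log2 fold was -0.31 ± 0.16 with an edgeR adjusted p of 0.565.

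miR-16-5p, the member found in most tissues at a high level, gave 33167, 34581 and 35489 reads in sham P14 and 38059, 37262 and 34654 reads in OIR P14. As CPM the values were 2821, 2594 and 2813 in sham and 2945, 2844 and 2779 in OIR P14, which overlap. Its log2 fold was 0.05 ± 0.09 with an edgeR adjusted p of 0.873. miR-15b-5p (66.7, 70.3 and 84.6 against 69.3, 81.2 and 85.1 CPM) and miR-15a-5p (214, 217 and 209 against 211, 207 and 232 CPM) overlapped too, with log2 folds of 0.08 ± 0.14 and 0.02 ± 0.09. Scaled by library totals alone, the median of all miRNAs moved from -0.03 to -0.21, and these 3 had log2 folds of -0.13, -0.09 and -0.16, in the order miR-16-5p, miR-15b-5p and miR-15a-5p. The 3p arms gave few reads, 38 to 54 for miR-15b-3p and 10 to 16 for miR-16-3p in these libraries, and had log2 folds of 0.05 ± 0.22 and -0.26 ± 0.26.

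**Figure D2:**
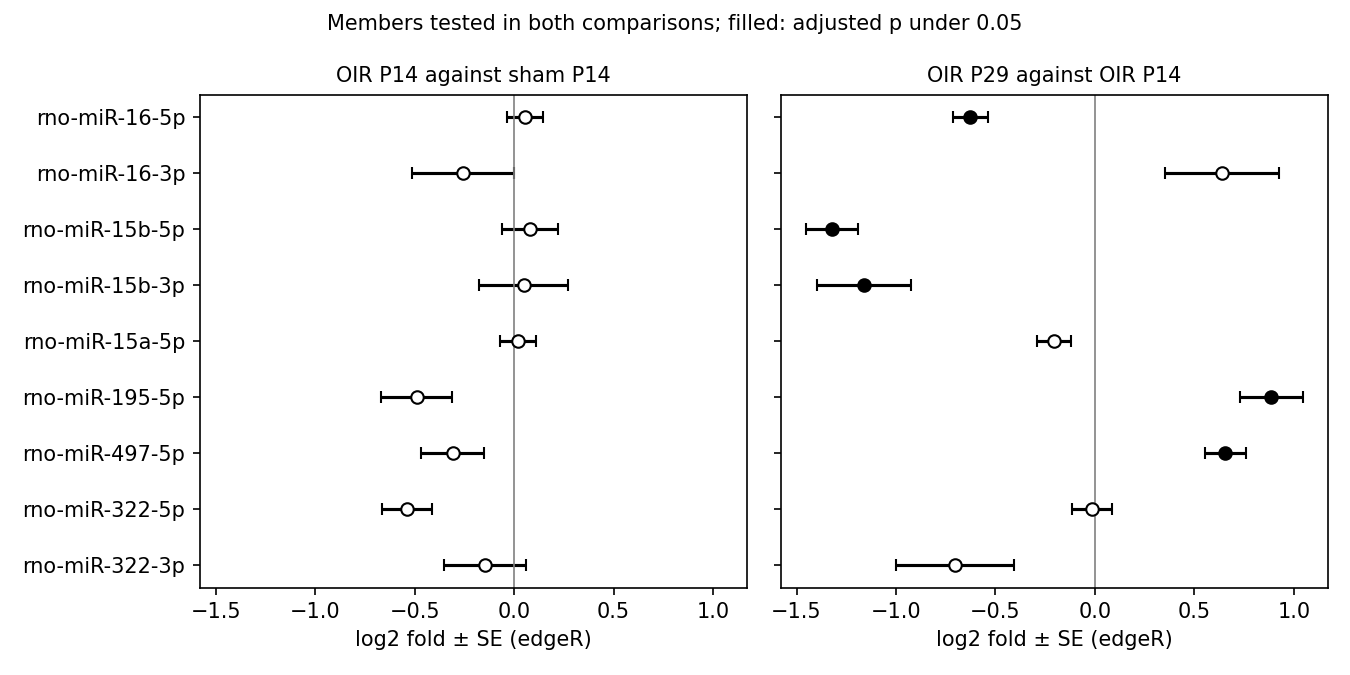
Log2 fold (x axis) with its standard error from edgeR for the 9 members tested in both comparisons (y axis), OIR P14 against sham P14 on the left and OIR P29 against OIR P14 on the right; filled points have an adjusted p under 0.05. No point is filled on the left, and 5 are filled on the right, from -1.32 for miR-15b-5p to 0.89 for miR-195-5p.

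The later comparison, OIR P29 against OIR P14, shares the OIR P14 libraries with the first, so the 2 are not independent. The members that passed the test went both ways. Both arms of miR-15b and miR-16-5p fell, and the 5p members from chromosome 10, miR-195-5p and miR-497-5p, rose. miR-16-3p had a positive log2 fold of 0.64 that did not pass the test. The log2 fold of miR-322-5p was near 0, and from -0.09 to 0.25 over 14 alternatives. edgeR called 5 of the 9 members tested, 2 higher and 3 lower, beside 198 of 424 miRNAs (46.7%), of which 97 were higher (22.9%) and 101 lower (23.8%). The members' share is close to that background. Their groups did not overlap for 6 of 9, beside 246 of 424 miRNAs (58.0%), and their median log2 fold was -0.21, beside -0.01 over all. Scaled by library totals alone the median of all miRNAs was 0.25 and the calls were 148 higher and 53 lower, with 3 members higher and 3 lower. The same 5 members were called under all 14 alternatives.

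miR-15b-5p had a log2 fold of -1.32, larger in size than that of miR-195-5p (0.89), but with library totals alone the order turned (-1.06 against 1.14). It gave 895, 1064 and 1061 reads in OIR P14 libraries 11, 12 and 38 and 360, 477 and 560 reads in OIR P29 libraries 20, 21 and 47. That is 69.3, 81.2 and 85.1 CPM against 27.2, 33.4 and 36.6 CPM. Every P29 library was below every P14 library, sham included, and the fall was 2.5-fold (log2 fold -1.32 ± 0.13 SE, edgeR adjusted p = 0.000253). Its 3p arm also fell, from 3.53 ± 0.556 to 1.62 ± 0.411 CPM (SD, n = 3; log2 fold -1.16 ± 0.24, edgeR adjusted p = 0.00551). The 5p arm gave 22.1 reads per 3p read in OIR P14 and 19.8 in OIR P29, against 21.6 in sham P14, and the ranges of this ratio overlapped in all groups.

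miR-16-5p, whose reads cannot be assigned to one locus, fell less. Its values were 2945, 2844 and 2779 CPM in OIR P14 libraries 11, 12 and 38, and 1785, 1920 and 2038 CPM in OIR P29 libraries 20, 21 and 47. The groups did not overlap, and the fall was 1.54-fold (log2 fold -0.63 ± 0.09, edgeR adjusted p = 0.00129). miR-15a-5p, whose own neighbour in human and mouse is another miR-16 copy, was at 211, 207 and 232 CPM in OIR P14 and at 183, 193 and 206 CPM in OIR P29. The highest P29 library lay just below the lowest P14 library, and the log2 fold of -0.21 ± 0.09 missed the threshold (unadjusted p = 0.0444, edgeR adjusted p = 0.0823). Quantile normalization in limma-voom gave it -0.43 with an adjusted p of 0.000664, and library totals alone gave 0.06. miR-16-3p, with 10 to 28 reads in each library, had a log2 fold of 0.64 ± 0.29 (edgeR adjusted p = 0.0999), of opposite sign to its 5p arm. It passed without OIR P29 library 20 (log2 fold 0.88, edgeR adjusted p = 0.0394).

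miR-195-5p rose 1.85-fold. It gave 134, 126 and 187 reads in OIR P14 and 282, 310 and 360 reads in OIR P29. As CPM these were 10.4, 9.62 and 14.997 against 21.3, 21.7 and 23.5, so the P29 libraries were above every P14 library, sham included. The log2 fold was 0.89 ± 0.16 (edgeR adjusted p = 0.00305), and without OIR P14 library 38 it was 1.07 (adjusted p = 0.000861). miR-497-5p rose with it, from 8.59, 9.16 and 8.74 CPM in OIR P14 libraries to 14.5, 14.9 and 13.9 CPM in OIR P29 libraries. The groups lay well apart, and the rise was 1.58-fold (log2 fold 0.66 ± 0.10, edgeR adjusted p = 0.00193). In mouse these miRNAs are known to hold muscle stem cells at rest.

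miR-322-5p was at 13.0, 14.3 and 15.4 CPM in OIR P14 and at 14.3, 15.3 and 14.1 CPM in OIR P29. The groups overlapped, and the log2 fold was -0.01 ± 0.10 with an edgeR adjusted p of 0.927. Its 3p arm gave 104, 79 and 86 reads in OIR P14 libraries 11, 12 and 38 and 40, 53 and 99 reads in OIR P29 libraries 20, 21 and 47. Libraries 20 and 21 were below all OIR P14 libraries while library 47 was inside their range, so the fold rested on which P29 libraries were used. It was -0.70 ± 0.30 with all of them (edgeR adjusted p = 0.0851) and -1.05 without library 47 (adjusted p = 0.00713). The remaining members, miR-195-3p with 5 to 16 reads and miR-503-3p with 5 to 13 reads in each library, were too low for the filter on counts. With no filter their log2 folds were 0.59 ± 0.51 and 0.21 ± 0.38 here, and -0.39 ± 0.39 and -0.63 ± 0.35 in the first comparison, none with an edgeR adjusted p under 0.05.

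A ratio of 2 members inside a library does not depend on the scaling between libraries, so it compares members directly. Of 6 ratios set out, 5 differed over the 3 groups in an exact permutation test over all assignments of the 9 libraries, after Benjamini-Hochberg adjustment over the 6. The 6 share members and are not independent. Ratios of other miRNAs were not tested, so this count has no background beside it. Of single miRNAs, edgeR called 46.7% in OIR P29 against OIR P14. For any pair of groups the exact test of 3 against 3 cannot go below p = 0.1, and pairs are therefore given as values. miR-16-5p gave 168 reads for each read of miR-195-5p in sham P14, 249 at OIR P14 and 86.2 at OIR P29. The log2 ratio of miR-195-5p to miR-16-5p was -7.39 ± 0.18 (SD, n = 3), -7.96 ± 0.37 and -6.43 ± 0.04, with no overlap between any groups. Its exact p was 0.00357, the smallest this design can give, and its adjusted p 0.0107. From OIR P14 to OIR P29 the ratio rose by 1.53, or 2.89-fold, between members that differ at 2 bases.

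The other ratio at the smallest p set the X chromosome against chromosome 2. The log2 ratio of miR-322-5p to miR-15b-5p was -1.84 ± 0.24 in sham P14, -2.46 ± 0.05 at OIR P14 and -1.14 ± 0.22 at OIR P29 (exact permutation p = 0.00357, adjusted p = 0.0107, n = 3 per group). The 3 groups did not overlap. The ratio of miR-322-5p to miR-16-5p was lower in OIR P14 (-7.65 ± 0.16) than in sham P14 (-7.06 ± 0.19) or OIR P29 (-7.03 ± 0.12), with an exact permutation p of 0.0357 and an adjusted p of 0.0429. Only OIR P14 stood apart in it. For miR-322-5p over miR-195-5p it was OIR P29 that stood apart, at -0.60 ± 0.12 against 0.34 ± 0.02 and 0.31 ± 0.27 (exact permutation p = 0.0286, adjusted p = 0.0429).

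The remaining ratios set hairpin neighbours against each other, with the limit that miR-16-5p reads may come from another locus too. miR-15b-5p over miR-16-5p was -5.22 ± 0.17 in sham P14, -5.19 ± 0.20 at OIR P14 and -5.89 ± 0.13 at OIR P29 (exact permutation p = 0.0286, adjusted p = 0.0429, n = 3 per group). Every P29 library was below every P14 library. miR-497-5p over miR-195-5p was -0.59 ± 0.30, -0.37 ± 0.36 and -0.62 ± 0.12 in the same order, and the groups overlapped (exact permutation p = 0.525, adjusted p = 0.525). These 5p arms from 1 transcript thus gave no detectable difference in ratio. A difference smaller than the spread between 3 libraries would not have been seen.

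**Figure D3:**
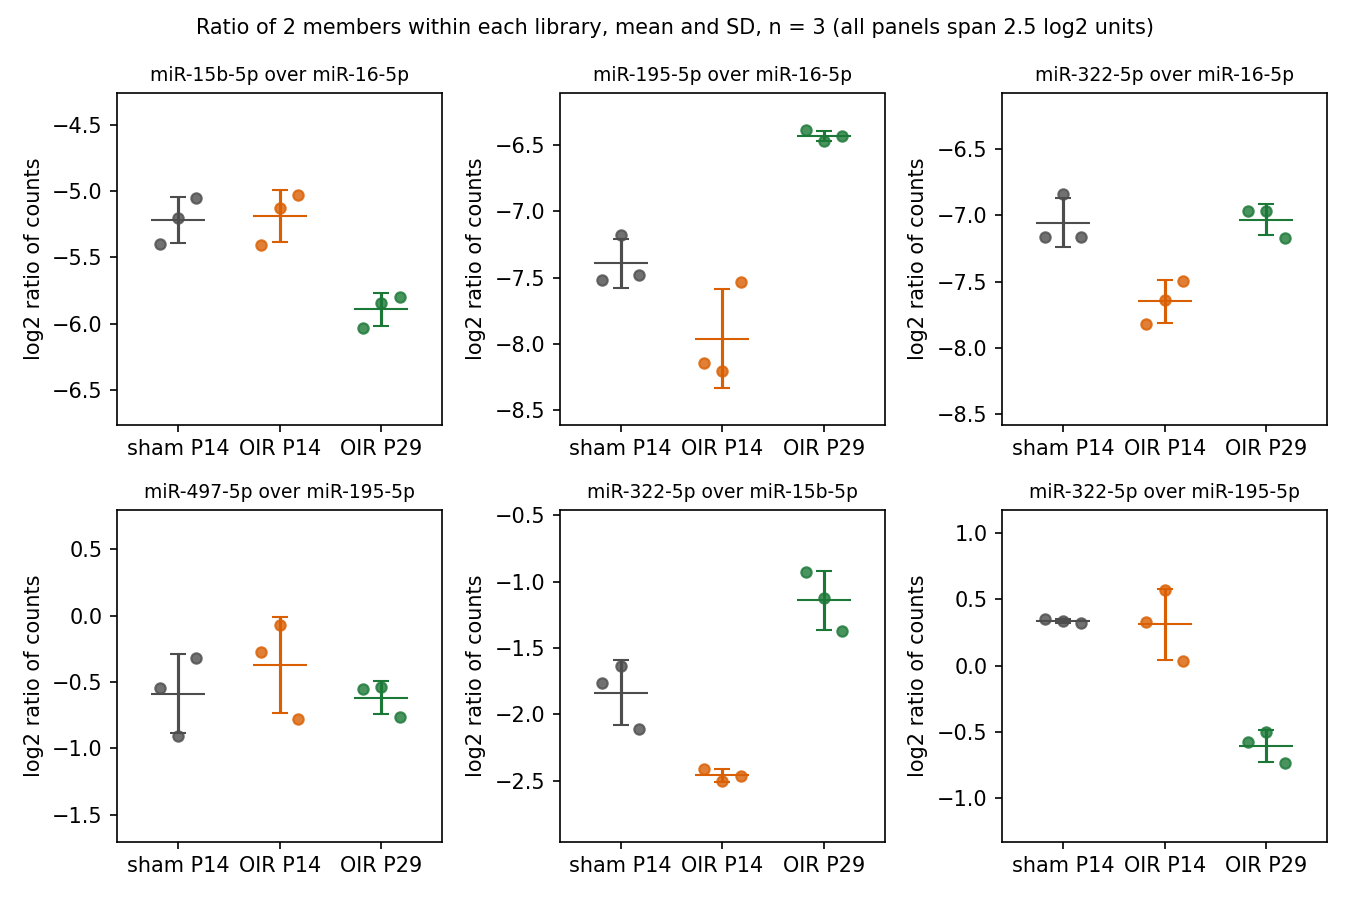
Log2 ratio of the counts of 2 members within each library (y axis, every panel spanning the same 2.5 log2 units) by group (x axis); points are libraries, and lines and bars are the mean and SD of 3. The ratio of miR-195-5p to miR-16-5p runs from -7.39 in sham P14 through -7.96 in OIR P14 to -6.43 in OIR P29, while that of miR-497-5p to miR-195-5p overlaps in all groups.

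The makeup of the 5p family moved accordingly. miR-15b-5p took 2.40% of the 5p family reads in sham P14, 2.47% at OIR P14 and 1.47% at OIR P29. miR-195-5p took 0.532%, 0.367% and 1.01%, and miR-497-5p 0.353%, 0.277% and 0.660%. miR-15a-5p took 6.94%, 6.80% and 8.85%, with no overlap between OIR P14 and OIR P29, although its own CPM did not rise. miR-322-5p took 0.672%, 0.447% and 0.667%. The summed level of the 6 was 3078 ± 127 CPM (SD, n = 3) in sham P14, 3186 ± 63.7 at OIR P14 and 2192 ± 144 at OIR P29. It followed miR-16-5p, and the rises of the chromosome 10 members were small beside it.

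miR-322 lies in a cluster whose other mature miRNAs could be read beside it: 5 were in the tables, miR-351-5p, miR-542-3p, miR-542-5p, miR-450a-5p and miR-450b-5p. In OIR P14 against sham P14 edgeR called 0 of the 5, DESeq2 and limma-voom 0, and 1 had an unadjusted p under 0.05. All 5 log2 folds were negative, from -0.37 for miR-450a-5p to -0.09 for miR-351-5p, with a median of -0.32 beside -0.03 for all miRNAs. In OIR P29 against OIR P14 the median was -0.46 and edgeR called 1 of the 5, beside 46.7% of all miRNAs: miR-542-3p (log2 fold -0.56 ± 0.18, adjusted p = 0.0359). The count of the 5 called lower was 3 with median centring or without library 47, 2 without library 38, and 0 to 3 over 14 alternatives, with 0 higher in each. The call of miR-542-3p was lost without any one of libraries 11, 12, 20 and 21 (edgeR adjusted p 0.0863, 0.11, 0.102 and 0.125) with library totals alone (0.246), in DESeq2 (0.0519), with all 9 libraries together (0.056) and in the authors' deposited table (false discovery rate 0.05001). Library 47 was above the mean of libraries 20 and 21 for each of the 5, by 1.26-fold to 1.64-fold, and for miR-322-3p by 1.93-fold. miR-322-5p did not share this, at 0.955 of their mean, where the median of all miRNAs was 0.973. The 5p arm of miR-322 gave 2.69 reads per 3p read in sham P14, 2.04 at OIR P14 and 3.47 at OIR P29, with a log2 SD of 0.30 to 0.59.

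**Figure D4:**
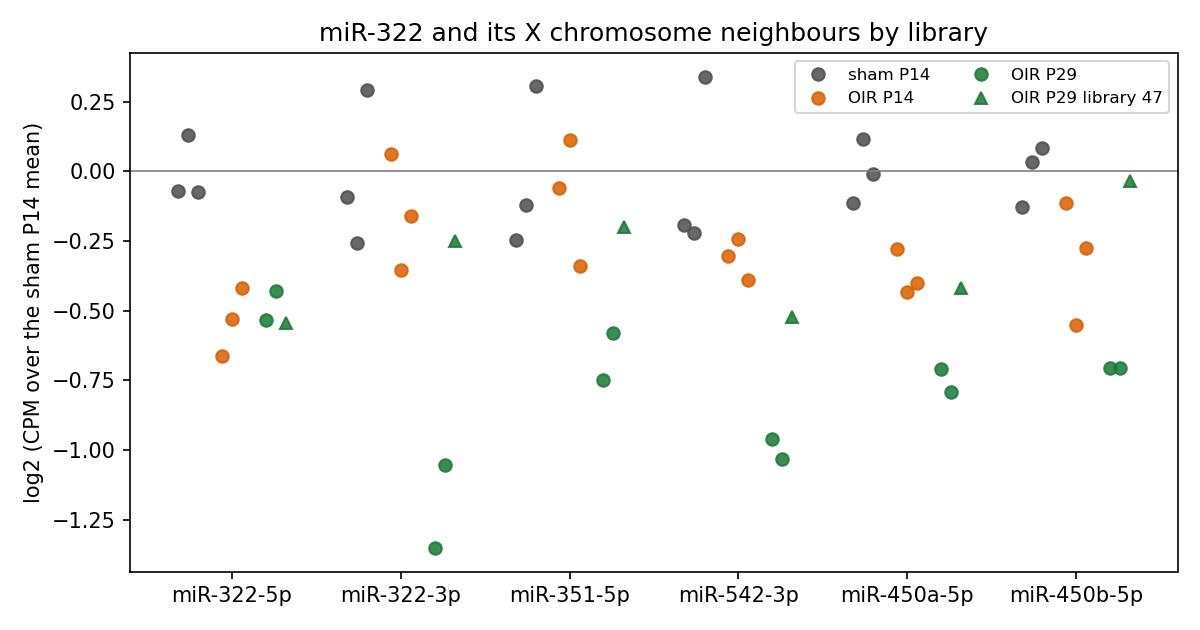
Log2 of each library's CPM over the sham P14 mean (y axis) for both arms of miR-322 and 4 of its X chromosome neighbours (x axis), by group; the triangle is OIR P29 library 47. For miR-322-3p library 47 is 1.93 times the mean of the other OIR P29 libraries, and for miR-322-5p it is 0.955 times their mean.

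miR-103-3p and miR-107-3p hold the family's seed shifted by 1 base and share part of its targets. The sequence of the one that changed is shown for comparison with those above, with bases 2 to 8 in capitals.
rno-miR-107-3p: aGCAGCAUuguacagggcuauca
In OIR P29 miR-107-3p was at 193, 179 and 177 CPM against 141, 144 and 128 CPM in OIR P14, a rise with no overlap (log2 fold 0.36 ± 0.10, edgeR adjusted p = 0.0185). The call was lost with median centring (adjusted p = 0.0988) and in limma-voom (0.0904). miR-103-3p had a log2 fold of -0.08 (edgeR adjusted p = 0.573). In OIR P14 against sham P14 the folds were -0.08 and -0.07, and neither was called.

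Other miRNAs that restrain growth, such as let-7, miR-34, miR-26 and miR-29, were read as a list of 20. At P14 edgeR, DESeq2 and limma-voom each called 0 of them, 1 had an unadjusted p under 0.05, and the median log2 fold was -0.12. In OIR P29 against OIR P14 edgeR called 8 of the 20 higher and 3 lower, beside 22.9% and 23.8% of all miRNAs, with a median log2 fold of 0.32. The share called in either direction is close to that of all miRNAs (46.7%). Those higher were miR-29a-3p (log2 fold 2.86), miR-29b-3p (2.93), miR-29c-3p (1.78), let-7b-5p (0.41), let-7c-5p (0.49), miR-26a-5p (0.47), miR-26b-5p (0.37) and miR-107-3p (0.36). The other let-7 members of the list and miR-98-5p were not called. On this list too, miRNAs of 1 family are not separate observations. Those lower were miR-34b-5p (-1.18), miR-34c-5p (-1.03) and miR-449a-5p (-1.28). miR-34a-5p, of the same family as these 3, had a positive log2 fold of 0.47 with no overlap (edgeR adjusted p = 0.0851). The count of higher members was 14 with library totals alone and 3 in limma-voom with quantile normalization. A list of 10 growth-promoting miRNAs of the miR-17 to 92 clusters and their paralogs had 8 lower and 0 higher, beside 23.8% and 22.9% of all miRNAs (median -1.20, beside -0.01 for all), and 8 lower in DESeq2 and limma-voom too. Those lower included miR-106b-5p (log2 fold -1.24) and miR-17-5p (-1.15). miR-20b-5p went the other way, with a log2 fold of 0.47 and no overlap (edgeR adjusted p = 0.0689). With library totals alone 1 of the 10 was called higher. As members of shared clusters, the 10 are not separate observations. At P14 edgeR, DESeq2 and limma-voom called 0 of the 10, none had an unadjusted p under 0.05, and the median was 0.21.

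Markers of vessel cells moved between the same groups. The endothelial miRNAs miR-126a-3p and miR-126a-5p summed to 614 to 724 CPM in sham P14, 165 to 313 CPM at OIR P14 and 500 to 539 CPM at OIR P29. The 4 mural cell miRNAs of miR-143 and miR-145 summed to 1131 to 1286, 298 to 622 and 1496 to 1560 CPM. edgeR called both endothelial markers and 2 of the 3 mural markers tested lower in OIR P14 than in sham, and 0 to 2 and 0 to 3 of them over 14 alternatives. It called both and all 3 higher in OIR P29 than in OIR P14. OIR P14 library 38, the one with the highest miR-195-5p of its group, was also its highest in miR-126a-5p, at 248 CPM against 131 and 183 CPM in libraries 11 and 12. miR-497-5p was not highest there, at 8.74 CPM against 8.59 and 9.16 CPM in libraries 11 and 12. Red blood cell miRNAs summed to 1022 to 1168, 963 to 1050 and 1075 to 1170 CPM. Most of this sum was miR-486, at 961 to 1164 CPM, whose log2 folds of -0.11 and 0.10 were not called. miR-451-5p had means of 5.13, 1.22 and 10.8 CPM and log2 folds of -2.07 and 3.08. Of the red blood cell miRNAs tested, edgeR called 1 of 2 lower at P14 (miR-451-5p). It called 3 of 4 higher at P29 (miR-451-5p and both arms of miR-144). The P14 count was 0 in limma-voom and without library 27, 51 or 38, and 0 to 2 over 14 alternatives. Leukocyte miRNAs summed to 44.2 to 57.5, 37.1 to 54.3 and 68.9 to 84.6 CPM, with 1 of 3 lower at P14 (miR-150-5p) and 1 of 4 higher at P29. The others tested at P14 had positive log2 folds with no overlap, 0.38 for miR-142-3p and 0.47 for miR-142-5p (edgeR adjusted p = 0.588 and 0.363), and the list's median was 0.38. The 2 muscle miRNAs in the tables summed to 5.57 to 13.1 CPM over all libraries, with none called. The listed muscle miRNAs miR-1-3p and miR-206-3p were not among the miRNAs counted. No other listed marker was at 0 in any library, and the part of these cells in the levels of miR-195-5p, miR-497-5p and miR-322-5p was not tested.

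The non-members with the most similar profiles differed for each of 3 members set against 422 other miRNAs, by the root mean square difference of centred log2 CPM over the 9 libraries. For miR-16-5p they were miR-148b-3p (0.0985), miR-532-5p (0.0986) and miR-301a-3p (0.111). For miR-195-5p they were miR-210-3p (0.183), miR-129-5p (0.188) and miR-376b-3p (0.205). For miR-322-5p they were miR-134-5p (0.121), miR-411-3p (0.132) and miR-221-5p (0.155). No member was among the compared miRNAs, and the values describe these libraries alone.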

How the data were processed

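Small RNA from 9 retina libraries was read from one end over 50 bp. The labels' protocols and the series text name different HiSeq models for this. No source used here names the trimming, aligner, counter or genome build, and no coordinates are printed. The authors deposited 2 tables, 1 per comparison, of read counts per mature miRNA for 6 libraries each, per the file headers. Each table also holds the authors' deposited log2 fold and false discovery rate (an adjusted p-value). The submitters' processing notes name limma and give it no version. Columns carry library codes: those in both tables (11, 12 and 38, with 1395 of 1395 identical counts) are OIR P14, and the rest are the other group of their table. The authors' fold signs matched this for 7 of 7 and 198 of 198 called miRNAs. Replicates differed by more than counting noise, so none was taken as a library counted more than once. The labels do not say that libraries are separate animals, and the p-values therefore reflect only how these libraries vary, which may be technical.

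edgeR 4.0.16, run in R 4.3.3, was fitted to the 6 libraries of each comparison: TMM, filterByExpr (minimum count 10, minimum total 15), and the quasi-likelihood F test on 4 residual degrees of freedom. P-values were adjusted by Benjamini-Hochberg over all 415 and 424 miRNAs tested, and a miRNA was called at adjusted p under 0.05. The pipeline was checked on simulated data. Dividing the log2 fold by the square root of F gave its SE. Biological coefficients of variation were 14.6% and 17.5%. A count of 0 would allow up to 3 reads, or 0.197 to 0.254 CPM. Ratios of counts used a pseudocount of 0.5 and an exact permutation test of the between-group over within-group variance of the 3 groups. The exact test of 3 against 3 was 2-sided, on the difference of means. Alternatives were DESeq2 1.42.0, limma 3.58.1 with quantile normalization, other scalings, no filter, all 9 libraries together, the authors' table, a pseudocount of 1, and leaving out each library.

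The members, the lists and the rule for named miRNAs (all members, X chromosome neighbours, miR-103 and miR-107, growth and marker lists, and the 3 most similar profiles) were chosen with earlier results of these data known. Examples from lists were chosen after their values were seen. Sequences, chromosomes and distances are from RefSeq, assembly GRCr8.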

Additional observations from a re-analysis of the deposited data

How the results depend on the processing

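The 5 members called in OIR P29 against OIR P14 kept their direction and call under all 14 alternatives, and the 6 ratios kept theirs under a pseudocount of 1 and without each library. At P14 the number of miRNAs called was 7, 12 in DESeq2 with its own filter (383 miRNAs tested), 2 in limma-voom with quantile normalization, and 1 to 7 without one library (1 without sham P14 library 27 or 51). Members called were 0, and 1 with all 9 libraries together or in the authors' deposited table (miR-322-5p). Without miR-16-5p the 5p family took 0.0347%, 0.0302% and 0.0295% of reads in sham P14, OIR P14 and OIR P29. Folds near 0 changed sign. At P14, library totals alone gave log2 folds of -0.16 for miR-15a-5p, -0.13 for miR-15b-3p, -0.091 for miR-15b-5p and -0.13 for miR-16-5p, and miR-15a-5p was also at -0.0045 in limma-voom and -0.0078 in the authors' deposited table. Without one library the log2 folds at P14 ran from -0.022 (without OIR P14 library 38) to 0.053 for miR-15a-5p, -0.084 (without sham P14 library 27; also negative without OIR P14 library 12) to 0.23 for miR-15b-3p, -0.00022 (without sham P14 library 27) to 0.097 for miR-16-5p, and -0.28 to 0.054 (without sham P14 library 51) for miR-322-3p. For P29 against P14, library totals gave 0.059 for miR-15a-5p and 0.25 for miR-322-5p. The latter was also 0.00027 with no filter, 0.035 with all 9 libraries, 0.010 in the authors' deposited table, and -0.028 to 0.056 without one library (positive without 12, 38, 20 or 47). miR-322-3p was called with median centring (log2 fold -0.79, edgeR adjusted p = 0.0391), in the authors' table (-0.75, false discovery rate 0.0475) and without library 47, and miR-16-3p with totals alone (0.91, edgeR adjusted p = 0.0476) and without library 20. For library totals the shift of all miRNAs goes with these moves, and for the rest the cause was not tested. No paired analysis was possible because the columns carry library codes and no replicate numbers. Members with few reads (miR-16-3p, miR-195-3p, miR-503-3p) are limited by counting error.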
